A study of Homo sapiens with 19 samples.

Results

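The SR and hnRNP splicing factor genes were taken as every gene symbol starting with SRSF or HNRNP, without symbols that hold a hyphen or end in a pseudogene number after a digit. This gave 66 of the 34825 gene symbols measured, 12 of them SRSF and 54 HNRNP. Another 99 symbols with the same start were dropped. Of the 54 HNRNP symbols, 29 were still pseudogenes by annotation or by name, such as HNRNPCP1, because their P follows a letter, and they are described apart. The other 37 were the 12 SRSF genes and 25 HNRNP genes. A gene was tested where its normalized counts averaged 10 or more across an experiment, and 34 members passed in the INO80 experiment and 38 in the MCRS1 experiment. The same 33 genes outside pseudogenes passed in each, joined by 1 pseudogene in the first and 5 in the second. The 4 genes outside pseudogenes that failed were HNRNPCL1, HNRNPCL2, HNRNPCL3 and HNRNPCL4, with mean normalized counts of 0 to 0.524 for INO80 and 0.240 to 4.40 for MCRS1. Of the 66 members, 10 were at 0 in every library of the INO80 experiment and 8 in every library of the MCRS1 experiment.

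SR proteins carry RNA recognition motifs and a tail rich in arginine and serine, bind mostly exonic sequences and help the spliceosome recognise exons. Heterogeneous nuclear ribonucleoproteins (hnRNPs) coat nascent transcripts and often oppose exon inclusion, and many also act in RNA stability, export and translation. Both families regulate their own messages through exons that send the transcript to nonsense-mediated decay, so a gene-level count mixes productive and unproductive transcripts. INO80 is the ATPase of a chromatin remodelling complex, MCRS1 is a subunit of that complex and of other nuclear complexes, and EPZ-6438 inhibits the histone methyltransferase EZH2.

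The libraries were stranded mRNA libraries of HepG2, a human liver cancer cell line, and all cells were transfected with an siRNA at 50 nM and collected after 72 h. In the INO80 experiment the cells received the control siRNA NTG, siINO80#1 or siINO80#2, with 3 libraries (A, B and C) in each group. In the MCRS1 experiment cells were given DMSO or 1 μM EPZ-6438 from 3 days before transfection, and the siRNA was NTG or siMCRS1. There were 2 libraries of DMSO NTG, 3 of DMSO siMCRS1, 3 of EPZ-6438 NTG and 2 of EPZ-6438 siMCRS1. These libraries are named and listed in the order of their table, as 1 and 3 for DMSO NTG, A and B for EPZ-6438 siMCRS1, and 1, 2 and 3 otherwise. MCRS1 was targeted with a single siRNA, so an effect of that reagent and of the loss of MCRS1 cannot be told apart. The labels do not say whether replicates were separate cultures, so p-values measure the spread between these libraries only. Each library held 17093574 to 25369547 recovered reads where INO80 was targeted and 26038505 to 47397233 where MCRS1 was targeted. The library siINO80#2 C stood apart from its replicates, with a chi-square per degree of freedom of 84.3 and 121 against them, where the other replicate pairs of that experiment lay between 9.45 and 18.7. The counts of changed members are therefore also given without it.

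The targeted genes followed their labels. INO80 was at 1264 ± 82.2 normalized counts in NTG, 608 ± 31.3 in siINO80#1 and 460 ± 21.7 in siINO80#2 (SD, n = 3 each). MCRS1 was at 1430 ± 208 normalized counts in DMSO NTG (SD, n = 2) and 114 ± 28.5 in DMSO siMCRS1 (SD, n = 3), and at 1363 ± 166 (SD, n = 3) and 108 ± 24.8 (SD, n = 2) in the EPZ-6438 groups. INO80 itself was also lower with siMCRS1, by 0.27 on the log2 scale in DMSO (SE 0.10, limma adjusted p = 0.0387) and by 0.35 in EPZ-6438 (SE 0.10, limma adjusted p = 0.00966). MCRS1 had log2 fold changes of -0.07 and -0.14 with the INO80 siRNAs, and neither passed the test. All 8 hepatocyte and HepG2 markers were present, with APOB at 261092 to 596123 normalized counts across the libraries. Among leukocyte markers CD3E and PTPRC stayed at 35.9 normalized counts or below, while LYZ stood at 35876 to 68408. Of 3 endothelial markers VWF and CDH5 stayed at 67.3 or below and PECAM1 at 138 to 326. The summed level of the 4 fibroblast markers was 120 to 291 normalized counts in the NTG libraries of the MCRS1 experiment and 369 to 796 in its siMCRS1 libraries, mostly COL1A1, and the part of this in the results below was not tested.

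Per kilobase of the canonical transcript, core hnRNP genes were the most abundant members. In bulk RNA, fewer cells that express a gene and less RNA per cell cannot be told apart. In NTG of the INO80 experiment HNRNPA1 stood at 5795 ± 564 normalized counts per kilobase, HNRNPA2B1 at 4641 ± 361, HNRNPK at 4339 ± 237, HNRNPH1 at 4306 ± 358 and HNRNPC at 3690 ± 207 (SD, n = 3 each). The ranges of HNRNPA2B1, HNRNPK and HNRNPH1 overlapped, so their order is within the spread. SRSF2, a regulator of exon inclusion, had the highest mean of the SR genes, at 2421 ± 122 per kilobase, and its range overlapped that of SRSF9 at 2263 ± 205 (SD, n = 3 each). At the low end stood SRSF8 at 199 ± 15.3, HNRNPUL2 at 194 ± 4.40, HNRNPA1L2 at 62.0 ± 3.04 and SRSF12 at 20.2 ± 1.05 normalized counts per kilobase (SD, n = 3 each). The first 7 places were the same in DMSO NTG of the MCRS1 experiment. The members that changed most, below, were not among the abundant ones: HNRNPD held place 20 of 33, HNRNPUL1 place 24, SRSF8 place 30, HNRNPUL2 place 31 and SRSF12 place 33 in NTG of the INO80 experiment.

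Counted over all members by the deposited scaling, more were called higher than lower in each knockdown comparison, and many were not called. Of 34 members tested, siINO80#1 raised 10 and lowered 1, where 20.7% of all 14034 genes tested were called higher and 20.8% lower. With siINO80#2, 7 members were higher and 4 lower, where the background was 26.6% higher and 28.4% lower. With siMCRS1 in DMSO 11 of 38 members were higher and 2 lower, against 23.1% and 24.6% of all 14312 genes. With siMCRS1 in EPZ-6438 18 members were higher and 1 lower, against 26.8% and 26.9% of all genes. The members' share of lower calls was thus 2.94%, 11.8%, 5.26% and 2.63% in these comparisons, under the background each time. Their share of higher calls was 29.4%, 20.6%, 28.9% and 47.4%, above the background except with siINO80#2. These shares are by the deposited scaling, and the split into higher and lower calls moved under other scalings, described below. Without the library siINO80#2 C, 11 members were higher and 1 lower with siINO80#1, and 6 were higher and 3 lower with siINO80#2. No pseudogene member was called in any comparison.

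**Figure D1:**
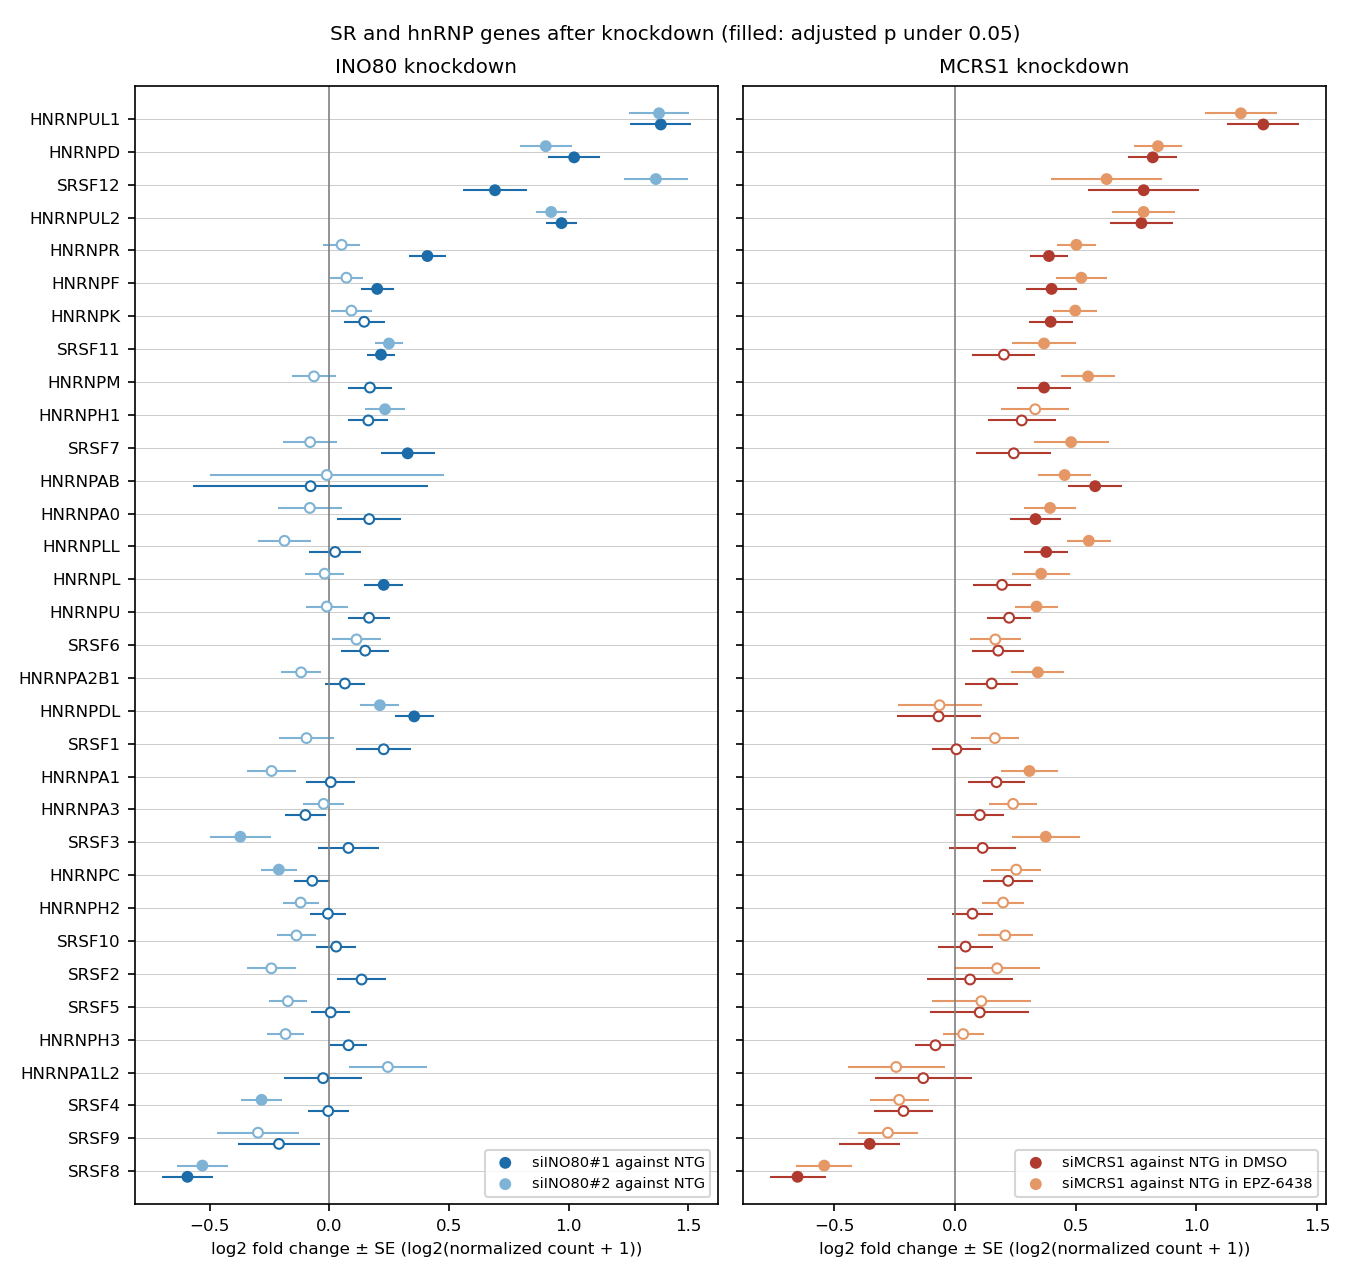
Log2 fold change with its standard error for the 33 SR and hnRNP genes outside pseudogenes, on the scale of log2(normalized count + 1), with the INO80 siRNAs on the left and siMCRS1 on the right. Filled points passed an adjusted p under 0.05. HNRNPUL1, HNRNPD, SRSF12 and HNRNPUL2 lead both panels, from 0.63 to 1.38, and SRSF8 is lowest, from -0.65 to -0.53.

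Of the 33 genes, 5 were called in all 4 knockdown comparisons, in the same direction each time. HNRNPUL1, HNRNPUL2, HNRNPD and SRSF12 rose and SRSF8 fell. The share of all genes called in all 4 was not counted, so the 5 are not set against a background. By pairs, fewer members than genes in general were called the same way. For siINO80#1 and siMCRS1 in DMSO it was 20.6% of members beside 27.6% of all genes. With siINO80#2 in place of siINO80#1 it was 14.7% beside 31.8%. The comparisons of siINO80#1 and siINO80#2 share their NTG libraries, while the INO80 experiment and both MCRS1 comparisons each have NTG libraries of their own. SRSF8 is given per library because its pattern was noticed after the values were seen.

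HNRNPUL1 encodes an RNA-binding protein of the hnRNP U-like family that is recruited to sites of DNA damage. It lies at chr19:41262557-41307787 of GRCh38.p14 in the RefSeq annotation. Its normalized counts were 2419, 2163 and 2156 in the NTG libraries A, B and C, 5869.6, 5693 and 6018 in siINO80#1, and 5342, 4989 and 7428 in siINO80#2. In the MCRS1 experiment they were 4218 and 3796 in DMSO NTG, 9835, 10116 and 9171 in DMSO siMCRS1, 3400.2, 5183 and 4201 in EPZ-6438 NTG, and 9331 and 9757 in EPZ-6438 siMCRS1. Every knockdown library was above every control library of its experiment. The mean was 2.61 times that of NTG with siINO80#1 and 2.64 times with siINO80#2, and 2.42 and 2.24 times with siMCRS1 in DMSO and EPZ-6438. The log2 fold changes were 1.38 (SE 0.13, limma adjusted p = 1.77e-05), 1.38 (SE 0.13, limma adjusted p = 8.47e-06), 1.28 (SE 0.15, limma adjusted p = 9.81e-05) and 1.18 (SE 0.15, limma adjusted p = 9.39e-05). With siINO80#2 its value was within the error of that of SRSF12 (1.36), and without siINO80#2 C SRSF12 had the larger value (1.32).

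HNRNPUL2, its paralogue and likewise linked to the DNA damage response, lies at chr11:62712630-62727457. It was at 1000.4, 998 and 1039 normalized counts in NTG, at 2051, 1995 and 1908 in siINO80#1, and at 1976, 1817 and 1987 in siINO80#2. In the MCRS1 experiment the counts were 1614 and 1711 in DMSO NTG, 2872, 2713 and 2936 in DMSO siMCRS1, 1347, 1647 and 1888 in EPZ-6438 NTG, and 2815 and 2727 in EPZ-6438 siMCRS1. The groups did not overlap in any of the 4 comparisons. The log2 fold changes were 0.97, 0.93, 0.77 and 0.78 in the order above, with standard errors of 0.06 in the INO80 experiment and 0.13 in the MCRS1 experiment and limma adjusted p-values of 2.55e-06, 1.46e-06, 0.000729 and 0.000519. A read-through row, HNRNPUL2-BSCL2, overlaps this gene and may share its reads. That row held 682 to 785 normalized counts in NTG and 746 to 966 with the INO80 siRNAs, and 1207 to 1527 in the NTG libraries of the MCRS1 experiment against 1083 to 1262 with siMCRS1, so it did not rise by a like amount.

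HNRNPD, also named AUF1, binds AU-rich elements and promotes the decay of many messages. It lies at chr4:82352498-82373991. Its normalized counts were 3035, 2768 and 2272 in NTG, 5895, 5243 and 5182 in siINO80#1, and 5211, 4561 and 5266 in siINO80#2. They were 6695 and 7168 in DMSO NTG, 12812, 11877 and 12000.4 in DMSO siMCRS1, 6147, 6549 and 7333 in EPZ-6438 NTG, and 12482 and 11394 in EPZ-6438 siMCRS1. Again the knockdown libraries lay wholly above the controls. The log2 fold changes were 1.02 (SE 0.11), 0.90 (SE 0.11), 0.82 (SE 0.10) and 0.84 (SE 0.10), with limma adjusted p-values of 4.41e-05, 4.79e-05, 0.000133 and 7.38e-05. HNRNPDL, the closest relative of HNRNPD and near it on chromosome 4, rose less with siINO80#1 (log2 fold change 0.35, SE 0.08, limma adjusted p = 0.00536) and siINO80#2 (0.21, SE 0.08, limma adjusted p = 0.0473). Under equal totals both calls were lost (0.27, limma adjusted p = 0.0537, and 0.10, limma adjusted p = 0.422). The call with siINO80#2 was also lost without any of 7 single libraries, with limma adjusted p-values of 0.0531 to 0.171. With siMCRS1 the values for HNRNPDL were -0.07 (SE 0.17) and -0.06 (SE 0.17) and did not pass the test.

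SRSF12, a low-abundance SR protein known for repressing splicing, had 77.0, 70.8 and 70.1 normalized counts in NTG, 111, 133 and 111 in siINO80#1, and 201, 166 and 200.3 in siINO80#2. All siINO80#2 libraries were above all siINO80#1 libraries, and those above all NTG libraries. In the MCRS1 experiment SRSF12 had 122 and 165 in DMSO NTG, 205, 264 and 269 in DMSO siMCRS1, 189, 140.0 and 226 in EPZ-6438 NTG, and 303 and 260.1 in EPZ-6438 siMCRS1. The log2 fold changes were 0.69 (SE 0.13, limma adjusted p = 0.00200), 1.36 (SE 0.13, limma adjusted p = 1.30e-05), 0.78 (SE 0.23, limma adjusted p = 0.0163) and 0.63 (SE 0.23, limma adjusted p = 0.0386). The calls with siMCRS1 were lost under several alternatives. Under equal totals the log2 fold change was 0.55 in DMSO (limma adjusted p = 0.0949) and 0.39 in EPZ-6438 (limma adjusted p = 0.217). In DMSO the limma adjusted p was 0.158 without DMSO NTG 1 and 0.0520 without DMSO siMCRS1 2. In EPZ-6438 the limma adjusted p was 0.0504 to 0.184 without DMSO siMCRS1 2, EPZ-6438 NTG 1, EPZ-6438 NTG 2 or either EPZ-6438 siMCRS1 library, and the call was also lost with no filter, by edgeR with TMM scaling and with only the groups compared. SRSF12 lies at chr6:89095959-89118071 and overlaps PM20D2 in the annotation. Use of the strand in counting was not given, so its count is uncertain. The same holds for other members whose spans overlap another annotated gene. Among them are HNRNPUL1 (LOC105372401 and RN7SL34P), HNRNPK (HNRNPK-AS1 and RMI1), HNRNPH3 (PBLD and RUFY2), SRSF2 (MFSD11), SRSF4 (MECR) and SRSF9 (GATC).

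SRSF8, an SR gene that arose as an expressed retrocopy of SRSF2, moved the other way and lies at chr11:95066877-95071225. Its normalized counts were 797, 927 and 840.0 in NTG, 532, 623 and 546 in siINO80#1, and 596, 667 and 518 in siINO80#2. They were 1539 and 1515 in DMSO NTG, 979, 1017 and 919.6 in DMSO siMCRS1, 1717, 1367 and 1515 in EPZ-6438 NTG, and 1105 and 994 in EPZ-6438 siMCRS1. No knockdown library reached the lowest control library of its experiment. SRSF8 fell by 0.59 on the log2 scale with siINO80#1 (SE 0.11, limma adjusted p = 0.00135), by 0.53 with siINO80#2 (SE 0.11, limma adjusted p = 0.00172), by 0.65 with siMCRS1 in DMSO (SE 0.12, limma adjusted p = 0.00105) and by 0.54 in EPZ-6438 (SE 0.12, limma adjusted p = 0.00251). Because SRSF8 resembles SRSF2, reads may be split between them. SRSF2 itself had log2 fold changes of 0.13, -0.24, 0.06 and 0.17 in the same comparisons, none of which passed the test without a replicate block.

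**Figure D2:**
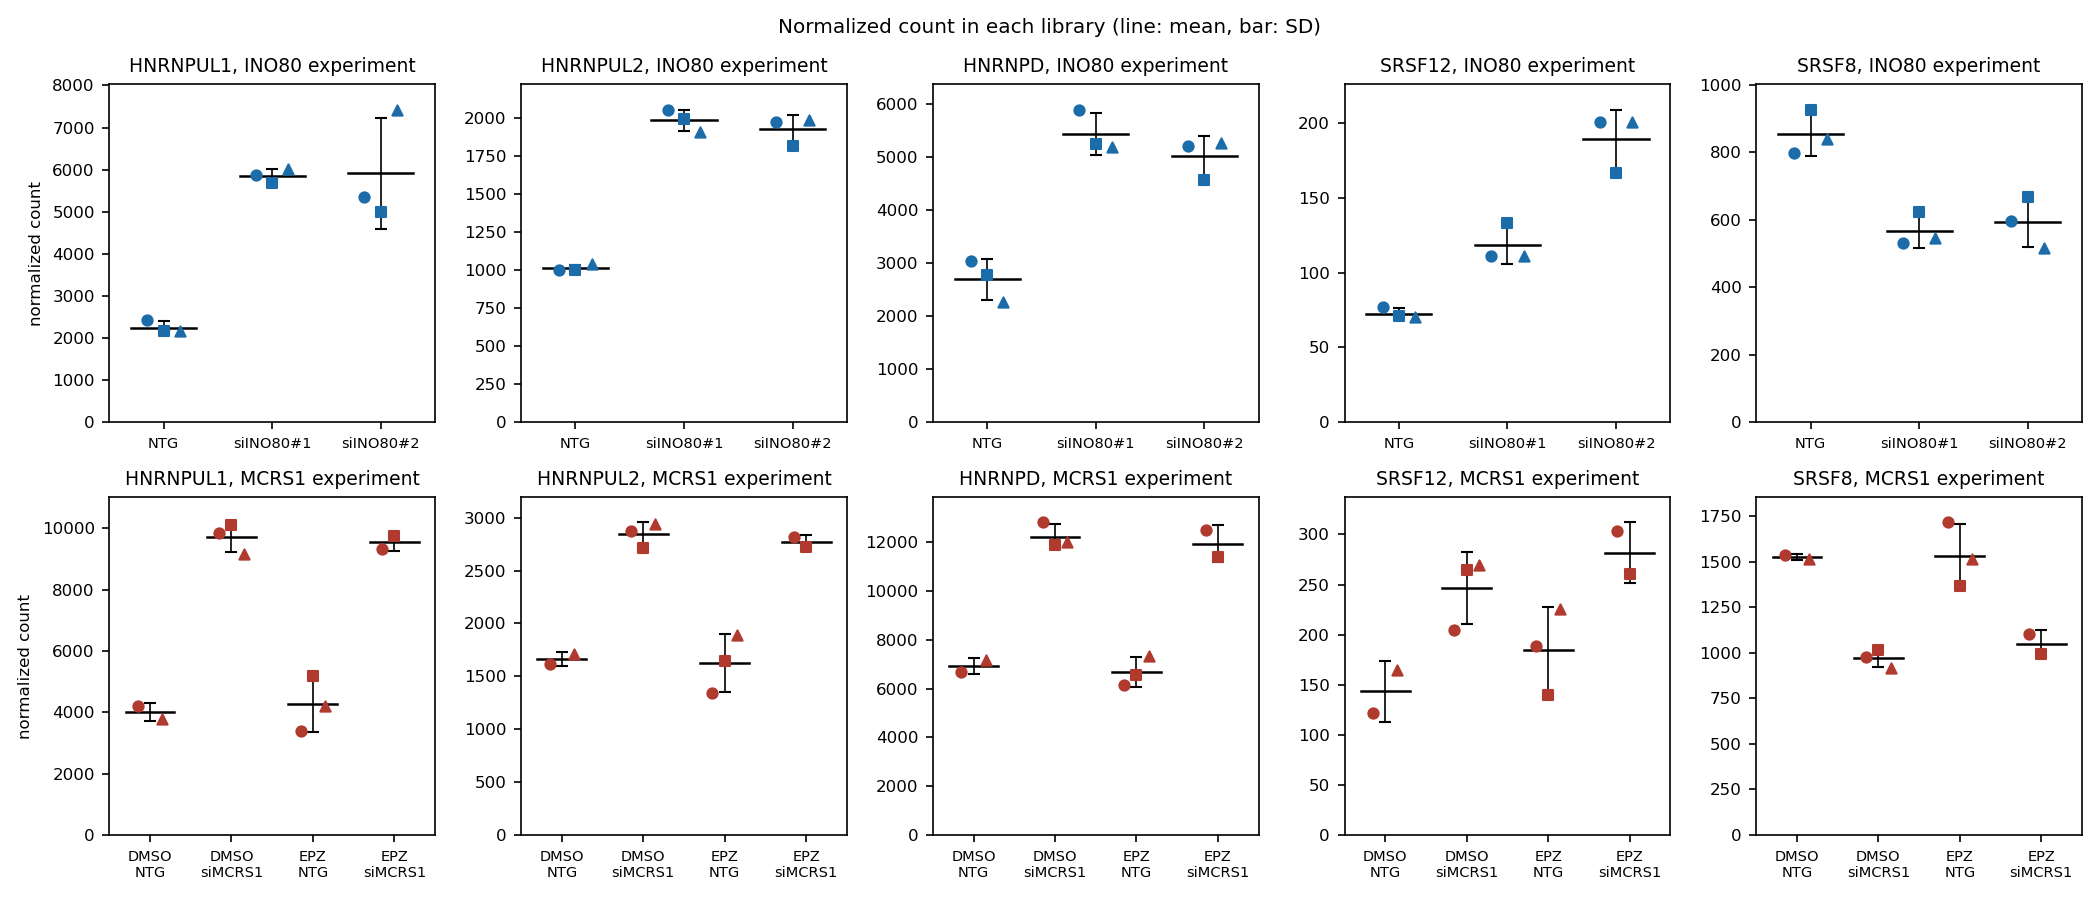
Normalized counts of HNRNPUL1, HNRNPUL2, HNRNPD, SRSF12 and SRSF8 in every library, with the INO80 experiment in the upper row and the MCRS1 experiment in the lower row. Circles, squares and triangles are libraries A, B and C or 1, 2 and 3, lines are group means and bars are SD. In all panels the knockdown libraries lie on 1 side of the controls of the same treatment.

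The promoters of HNRNPUL1, HNRNPD, HNRNPUL2 and SRSF8 are shown because these are 4 of the 5 genes that changed in every knockdown comparison. The window of the other one, SRSF12, holds neither the YY1 word nor the CCAAT box described here and is not printed. YY1 is a DNA-binding subunit of the INO80 complex, so its core word was searched, with a CCAAT box and a GC box for comparison. The sequences are RefSeq windows of 300 bases on GRCh38.p14, read 5′ to 3′ on the strand of the gene, from 250 bases before to 50 after the start site. Capitals mark matches on either strand, and overlapping matches run together. For YY1 the letters AANATGGC were searched. The first of the other boxes was read as CCAAT. The GC box was read as GGGCGG. HNRNPUL1 has 3 such windows, and the one that holds the YY1 word is shown. The windows are chr19:41264122-41264421 on the plus strand for HNRNPUL1, chr4:82373942-82374241 on the minus strand for HNRNPD, chr11:62727408-62727707 on the minus strand for HNRNPUL2, and chr11:95066627-95066926 on the plus strand for SRSF8.
HNRNPUL1: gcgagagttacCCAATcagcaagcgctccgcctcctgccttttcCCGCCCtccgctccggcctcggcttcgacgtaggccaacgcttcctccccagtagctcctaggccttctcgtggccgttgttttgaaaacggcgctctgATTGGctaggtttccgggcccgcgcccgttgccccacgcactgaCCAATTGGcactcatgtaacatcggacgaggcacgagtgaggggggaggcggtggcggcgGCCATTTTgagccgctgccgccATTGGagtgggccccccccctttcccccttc
HNRNPD: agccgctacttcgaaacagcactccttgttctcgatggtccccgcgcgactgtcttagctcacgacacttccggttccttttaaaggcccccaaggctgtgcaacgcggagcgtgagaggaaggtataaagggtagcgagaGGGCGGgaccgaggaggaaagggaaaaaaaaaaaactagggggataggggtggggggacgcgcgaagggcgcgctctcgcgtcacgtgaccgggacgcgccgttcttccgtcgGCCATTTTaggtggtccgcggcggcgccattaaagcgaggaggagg
HNRNPUL2: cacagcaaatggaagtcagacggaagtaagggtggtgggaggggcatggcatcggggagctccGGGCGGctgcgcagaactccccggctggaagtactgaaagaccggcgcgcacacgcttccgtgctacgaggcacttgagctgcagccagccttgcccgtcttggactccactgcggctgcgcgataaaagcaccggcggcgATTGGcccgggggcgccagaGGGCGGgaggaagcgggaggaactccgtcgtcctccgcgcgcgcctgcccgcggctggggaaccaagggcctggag
SRSF8: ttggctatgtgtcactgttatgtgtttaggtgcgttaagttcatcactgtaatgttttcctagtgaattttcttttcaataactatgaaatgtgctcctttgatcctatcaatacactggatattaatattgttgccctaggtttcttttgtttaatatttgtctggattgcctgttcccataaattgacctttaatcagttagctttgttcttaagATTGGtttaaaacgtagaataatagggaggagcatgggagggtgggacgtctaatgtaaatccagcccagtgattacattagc
The YY1 word begins 4 bases after the start site of HNRNPD and 3 bases before that of HNRNPUL1, both times on the opposite strand. Neither HNRNPUL2 nor SRSF8 holds it. Of 34 members with a window, 6 hold the YY1 word in at least 1 window: HNRNPC, HNRNPCL4, HNRNPD, HNRNPM, HNRNPUL1 and SRSF1. That is 6 of 48 windows (12.5%), where 6.58% of all 35116 windows hold it. HNRNPC, HNRNPM and SRSF1 carry the word and had log2 fold changes of -0.21 to 0.23 with the INO80 siRNAs, of which -0.21 for HNRNPC with siINO80#2 was called, and HNRNPM was called higher with siMCRS1 by 0.37 in DMSO and 0.55 in EPZ-6438. The CCAAT box is in 50.0% of member windows and in 34.6% of all windows, and the GC box in 58.3% and 45.0%. These matches describe letters and not binding.

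Of the 5 core hnRNPs shown per library, HNRNPC alone was called with an INO80 siRNA by the deposited scaling without a replicate block. HNRNPA1, the best studied antagonist of SR proteins, had 23358, 22412 and 19319 normalized counts in NTG, 22961, 21603 and 20639.6 in siINO80#1, and 19531, 19180.4 and 16344 in siINO80#2. Its log2 fold changes were 0.01 and -0.24 (SE 0.10 each), and neither passed the test (limma adjusted p = 0.0673 for siINO80#2). With siINO80#2 it was called lower under equal totals (-0.35, limma adjusted p = 0.0340), under quantile normalization (-0.38, limma adjusted p = 0.00447), with the library letter as a block (limma adjusted p = 0.0183) and without NTG C. The 75 HNRNPA1 pseudogene rows dropped by the rule held 318 to 445 normalized counts in all per library of this experiment, few beside the gene itself.

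HNRNPA2B1, a reader of modified RNA and a splicing repressor, had 18142, 16856 and 15519 normalized counts in NTG, 18936, 16805 and 17065 in siINO80#1, and 16056, 15281 and 15132 in siINO80#2. HNRNPK, a poly(C)-binding protein, had 12992, 12868 and 11748 in NTG, 14256, 13836 and 13476 in siINO80#1, and 14501, 13649.5 and 12019.8 in siINO80#2. HNRNPU, a nuclear scaffold protein, had 14626, 13235 and 11801 in NTG, 15627, 14102 and 14635 in siINO80#1, and 13417, 12934 and 12873 in siINO80#2. Their log2 fold changes lay between -0.12 and 0.17 and none passed the test.

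HNRNPC, which binds uridine tracts and keeps cryptic exons silent, had 12298, 11741 and 10994 normalized counts in NTG, 11781, 11146 and 10425 in siINO80#1, and 10056, 9872 and 10312 in siINO80#2. Its log2 fold change was -0.07 with siINO80#1 (SE 0.07) and -0.21 with siINO80#2 (SE 0.07, limma adjusted p = 0.0335). The latter call was lost without NTG A, NTG B, siINO80#2 A or siINO80#2 B, with limma adjusted p-values of 0.0746 to 0.123. Among the SR genes, SRSF1, the prototype of the family, had 5773, 5058 and 4957 normalized counts in NTG, 6922, 5836 and 5743 in siINO80#1, and 5590.0, 5085 and 4174 in siINO80#2. By the deposited scaling without a block SRSF1 was called in no comparison, like SRSF5, SRSF6, SRSF10, HNRNPA1L2, HNRNPA3 and HNRNPH2. With the library letter as a block, which was taken to pair NTG and siINO80#1, SRSF1 was called higher with siINO80#1 (0.23, limma adjusted p = 0.0263), as was HNRNPM (0.17, limma adjusted p = 0.0469). Under quantile normalization SRSF1 was called lower with siMCRS1 (-0.34 in DMSO, limma adjusted p = 0.0163, and -0.27 in EPZ-6438, limma adjusted p = 0.0384) and HNRNPA3 was called lower with siINO80#1 (-0.23, limma adjusted p = 0.0310). SRSF5 was called lower with siINO80#2 under equal totals (-0.28, limma adjusted p = 0.0293) and with the library letter as a block (-0.17, limma adjusted p = 0.0444).

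The remaining calls with siINO80#1 were higher values of HNRNPR, HNRNPF, HNRNPL, SRSF7 and SRSF11, with log2 fold changes of 0.20 to 0.41. HNRNPR, which binds neuronal and other messages, kept its call in all 21 alternatives run, and SRSF11 lost it under equal totals and without NTG B or siINO80#1 B (limma adjusted p = 0.0512 and 0.0513). HNRNPF, HNRNPL and SRSF7 lost theirs without any of several single libraries of NTG or siINO80#1, with limma adjusted p-values of up to 0.119 for HNRNPF, 0.172 for HNRNPL and 0.146 for SRSF7. Under equal totals these genes were not called either (limma adjusted p = 0.195 to 0.348). With siINO80#2 the further calls were SRSF11 (0.25) and HNRNPH1 (0.23) higher, and SRSF3 (-0.37) and SRSF4 (-0.28) lower. SRSF11 lost this call under equal totals (0.14, limma adjusted p = 0.123). SRSF3 lost its call without NTG A (limma adjusted p = 0.0904), NTG B (0.0926) or siINO80#2 C (0.0813). SRSF4 lost it without NTG A (limma adjusted p = 0.0700) or siINO80#2 A (0.0542). HNRNPH1 lost its call without siINO80#2 A, NTG B, NTG C, siINO80#1 C or siINO80#2 C, with limma adjusted p-values of 0.0503 to 0.136. That call was also lost under equal totals (0.12, limma adjusted p = 0.215).

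The INO80 siRNAs differed from each other in some SR genes, while the share of all members called was near that of all genes. Set directly against siINO80#1, siINO80#2 gave 6 lower members and 1 higher, where 12.6% of all genes were called lower and 9.48% higher. In either direction 20.6% of the members were called, beside 22.1% of all genes. Of the 12 SRSF genes 4 were lower and 1 higher (41.7% called), and of the 21 HNRNP genes outside pseudogenes 2 were lower (9.52%). SRSF3, the smallest SR protein and a factor in splicing and messenger RNA export, had 4608, 4642 and 3877 normalized counts in NTG, 5082, 4744 and 4061 in siINO80#1, and 3747, 3659.9 and 2789.8 in siINO80#2. All siINO80#2 libraries were below all others. The log2 fold change of siINO80#2 against siINO80#1 was -0.45 (SE 0.13, limma adjusted p = 0.0281).

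SRSF7, a close relative of SRSF3 with a zinc knuckle, had 1928, 1861 and 1612 normalized counts in NTG, 2369, 2274 and 2121 in siINO80#1, and 1937, 1776 and 1423 in siINO80#2, a difference of -0.41 between the siRNAs (SE 0.11, limma adjusted p = 0.0267). SRSF2 had 4755, 4647 and 4313 in NTG, 4798, 5340.0 and 4922 in siINO80#1, and 3987, 4419.6 and 3266 in siINO80#2, a difference of -0.38 (SE 0.10, limma adjusted p = 0.0253). The siINO80#1 and siINO80#2 libraries did not overlap for either gene, while siINO80#2 overlapped NTG in both. HNRNPR had 4178, 3853 and 3674 in NTG, 5622, 5088 and 4847 in siINO80#1, and 4104, 3916 and 4095 in siINO80#2, a difference of -0.36 (SE 0.08, limma adjusted p = 0.00793). It was thus higher with siINO80#1 alone, and the direct test of the siRNAs passed. HNRNPR is shown per library after its values were seen.

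SRSF4 and HNRNPH3 differed by -0.28 (SE 0.09, limma adjusted p = 0.0396) and -0.26 (SE 0.08, limma adjusted p = 0.0361), and SRSF12 was 0.67 higher with siINO80#2 (SE 0.13, limma adjusted p = 0.00608). Only HNRNPR and SRSF12 kept their calls in this comparison under all 21 alternatives run. Without siINO80#1 A the limma adjusted p was 0.105 for SRSF3, 0.0921 for SRSF7 and 0.0518 for SRSF2, and without siINO80#1 B it was 0.0855, 0.0759 and 0.0924. For SRSF4 it rose above 0.05, so that the call was lost, without any of 6 single libraries (limma adjusted p up to 0.138). The call of HNRNPH3 was lost without any of 5 (up to 0.135). Without siINO80#2 C, the library that stands apart, the limma adjusted p of SRSF3 was 0.0572, and 5 members were lower and 1 was higher. With the library letter as a block 10 members were lower and 1 was higher, the added ones being HNRNPA1, HNRNPL, HNRNPM and SRSF1. In that fit 32.4% of the members were called, beside 25.6% of all genes. INO80 was itself lower with siINO80#2 than with siINO80#1, by 0.40 on the log2 scale (SE 0.08, limma adjusted p = 0.00577).

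**Figure D3:**
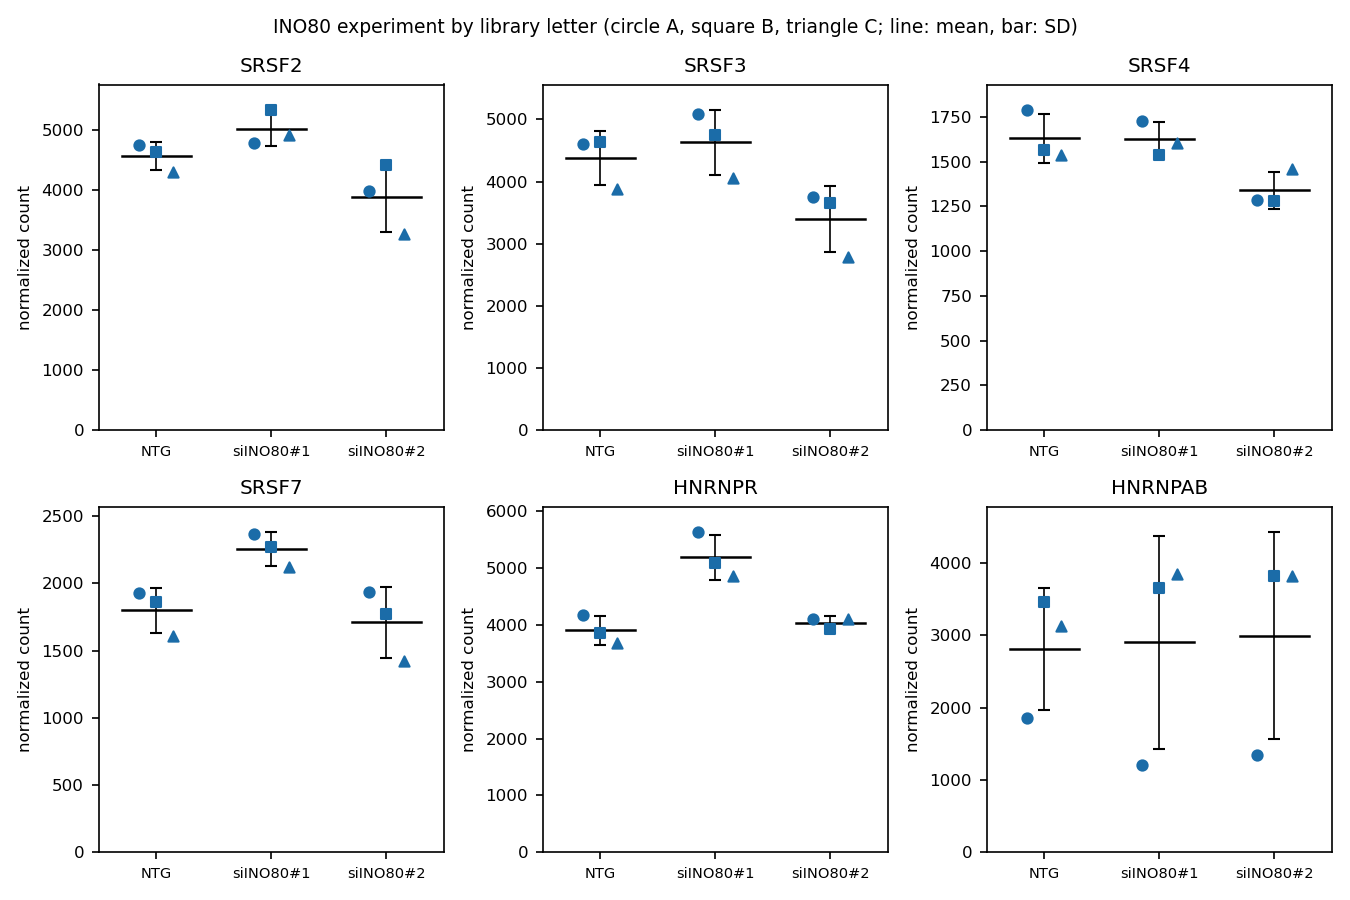
Normalized counts of SRSF2, SRSF3, SRSF4, SRSF7, HNRNPR and HNRNPAB in the 9 libraries of the INO80 experiment, with library letters as symbols, group means as lines and SD as bars. SRSF2, SRSF3, SRSF4, SRSF7 and HNRNPR are lower with siINO80#2 than with siINO80#1, and HNRNPAB is low in the A libraries of every group.

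HNRNPAB, an hnRNP related to HNRNPD, divided the libraries by letter and not by siRNA, and is shown for that reason after its values were seen. The A libraries held 1854 normalized counts in NTG, 1209 in siINO80#1 and 1343 in siINO80#2. The B and C libraries held 3457 and 3127 in NTG, 3659.5 and 3848 in siINO80#1, and 3815 and 3825 in siINO80#2. Without a block its standard error for the log2 fold change was 0.49, the largest of the 33 genes. A moderate change of HNRNPAB with an INO80 siRNA was therefore not detectable in that fit. With the library letter as a block HNRNPAB had -0.08 with siINO80#1 (limma adjusted p = 0.712) and -0.01 with siINO80#2 (limma adjusted p = 0.958). Its span overlaps PHYKPL in the annotation. What the letters stand for is not given in the labels.

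With siMCRS1, by the deposited scaling, the hnRNP genes that were called were higher. Of the 21 HNRNP genes 10 were higher and 0 lower in DMSO, and 14 were higher and 0 lower in EPZ-6438. The share called was 47.6% in DMSO, as in all genes tested (47.7%), and 66.7% in EPZ-6438, where 53.7% of all genes were called. Of the 12 SRSF genes 1 was higher and 2 were lower in DMSO, and 4 were higher and 1 was lower in EPZ-6438, which is 25.0% and 41.7%, under the share of all genes in both. The median log2 fold change was 0.28 for the HNRNP and 0.08 for the SRSF genes in DMSO, and 0.36 and 0.17 in EPZ-6438, where the median of all genes tested was 0.00 and 0.01. Under quantile normalization the HNRNP median was -0.00 in DMSO, with 4 genes higher and 1 lower, and 0.09 in EPZ-6438, with 4 and 0. The SRSF median was then -0.21 in DMSO and -0.18 in EPZ-6438, with 1 gene higher and 4 lower in each. Under equal totals the HNRNP median was 0.04 in DMSO, with 4 genes higher and 1 lower, and 0.12 in EPZ-6438, with 8 and 0. The SRSF median was then -0.15 and -0.07, with 0 genes higher and 3 lower in each. Of the calls over all genes, 48.1% in DMSO and 50.1% in EPZ-6438 were higher under quantile normalization, and 27.1% and 30.2% under equal totals.

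The labels give these libraries the letters A to C, while 3 of the 4 groups have columns numbered 1 to 3. A fit with the numbers read as letters and the letter as a replicate block, chosen after seeing the data, called 22 members in DMSO (19 higher and 3 lower), or 57.9% beside 57.4% of all genes. In EPZ-6438 it called 29 (26 higher and 3 lower), or 76.3% beside 63.4% of all genes. The members added were HNRNPA1, HNRNPA2B1, HNRNPC, HNRNPH1, HNRNPU, SRSF4, SRSF5, SRSF6 and SRSF7 in DMSO, and HNRNPA3, HNRNPC, HNRNPH1, HNRNPH2, SRSF2, SRSF4, SRSF5, SRSF6, SRSF9 and SRSF10 in EPZ-6438, and 0 were lost. The values below are from the fit without this block.

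HNRNPK had 27442 and 26424 normalized counts in DMSO NTG, 35024, 37249 and 34118 in DMSO siMCRS1, 25861, 25633 and 25287 in EPZ-6438 NTG, and 35541 and 36754 in EPZ-6438 siMCRS1. No siMCRS1 library overlapped the controls, and the log2 fold changes were 0.40 (SE 0.09, limma adjusted p = 0.00477) and 0.50 (SE 0.09, limma adjusted p = 0.00101). HNRNPAB had 8091 and 6949 in DMSO NTG, 11593, 11252 and 10804 in DMSO siMCRS1, 8209.6, 8027 and 6726 in EPZ-6438 NTG, and 10646 and 10247 in EPZ-6438 siMCRS1, with log2 fold changes of 0.58 (SE 0.11, limma adjusted p = 0.00160) and 0.45 (SE 0.11, limma adjusted p = 0.00540). The EPZ-6438 call of HNRNPAB was lost under equal totals (0.22, limma adjusted p = 0.0946) and under quantile normalization (0.09, limma adjusted p = 0.489). HNRNPLL, a regulator of exon skipping in lymphocytes, shown after its values were seen, had 2683 and 3015 in DMSO NTG, 3582, 3695 and 3810.1 in DMSO siMCRS1, 2357, 2190.2 and 2365 in EPZ-6438 NTG, and 3284 and 3482 in EPZ-6438 siMCRS1. HNRNPLL was called in both treatments, with log2 fold changes of 0.38 and 0.55. HNRNPA0, HNRNPF, HNRNPM and HNRNPR were also called in both, with values between 0.33 and 0.55. In DMSO the calls of HNRNPF and HNRNPM were lost without DMSO NTG 3 (limma adjusted p = 0.114 and 0.164), that of HNRNPLL without DMSO NTG 1 (0.0778) and that of HNRNPA0 without any of 4 single libraries (0.0630 to 0.111). HNRNPM also lost its call without DMSO siMCRS1 1 (limma adjusted p = 0.0595), and under quantile normalization its value turned to -0.00. In DMSO the calls of HNRNPK, HNRNPA0, HNRNPF, HNRNPLL, HNRNPM and HNRNPR were all lost under equal totals and under quantile normalization. Under equal totals their values were 0.10 to 0.16 (limma adjusted p = 0.132 to 0.537). In EPZ-6438 the calls of HNRNPK, HNRNPA0, HNRNPF, HNRNPM and HNRNPR were lost under quantile normalization, while that of HNRNPLL was kept.

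HNRNPA1, HNRNPA2B1 and HNRNPU, 3 of the abundant members, passed the test in EPZ-6438 alone. HNRNPA1 had 47640.0 and 43331 normalized counts in DMSO NTG, 55428, 48714 and 49629 in DMSO siMCRS1, 52198, 44119 and 45554 in EPZ-6438 NTG, and 60614 and 56254 in EPZ-6438 siMCRS1. HNRNPA2B1 had 36558 and 38519, then 42929.7, 40311 and 41855, then 36899.9, 30707 and 35527, then 44922 and 42060.1 in the same order of groups. HNRNPU had 30754 and 29440.5, then 34289, 35904 and 35271, then 28668, 29276 and 27863, then 36005 and 36261. The log2 fold changes in EPZ-6438 were 0.31, 0.34 and 0.34, and the interaction passed for none of them. All 3 calls were lost under quantile normalization, where only HNRNPD, HNRNPLL, HNRNPUL1 and HNRNPUL2 were called among the HNRNP genes in EPZ-6438. The call of HNRNPA1 was lost without any of 9 single libraries (limma adjusted p = 0.0538 to 0.220), that of HNRNPA2B1 without EPZ-6438 NTG 2 or either EPZ-6438 siMCRS1 library (0.0627 to 0.130) and that of HNRNPU without EPZ-6438 siMCRS1 B (0.0660). HNRNPC, at 27372 and 24913, then 32478, 30147 and 28743, then 26373, 26116 and 23949, then 31381 and 29339, was not called in either treatment.

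Among the SR genes SRSF9 fell by 0.35 in DMSO (SE 0.13, limma adjusted p = 0.0382), a call lost without DMSO NTG 1 (limma adjusted p = 0.276) and without any of 5 other single libraries (0.0519 to 0.102). It fell further under equal totals (-0.59) and quantile normalization (-0.56). In EPZ-6438 the value of SRSF9 was -0.28 (SE 0.13, limma adjusted p = 0.0839), and it was called under equal totals (-0.52, limma adjusted p = 0.00541) and quantile normalization (-0.53, limma adjusted p = 0.00424). SRSF4 had -0.21 in DMSO and -0.23 in EPZ-6438, neither called, and was called lower under equal totals (-0.45 and -0.47) and quantile normalization (-0.36 and -0.42) in both.

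SRSF3 had 11603 and 10734 normalized counts in DMSO NTG, 13179.6, 11459 and 11671 in DMSO siMCRS1, 11796, 8353 and 9204 in EPZ-6438 NTG, and 13225 and 11926 in EPZ-6438 siMCRS1. SRSF7 had 5119 and 4504, then 6289.9, 5380.4 and 5426, then 5122, 3489.6 and 4034, then 6332 and 5328. Both were called higher in EPZ-6438 alone, by 0.38 and 0.48, and both calls were lost without EPZ-6438 siMCRS1 A, with limma adjusted p-values of 0.207 for SRSF3 and 0.166 for SRSF7. SRSF3 also lost its call without any of 7 other single libraries (limma adjusted p = 0.0515 to 0.127) and SRSF7 without EPZ-6438 NTG 2 or 3 (0.0706 and 0.0564). Under quantile normalization the value of SRSF3 turned to -0.03. SRSF1, at 14626 and 13236, then 14857, 13539.7 and 13544, then 13804, 12083 and 12362, then 14777 and 13787, was not called, nor was SRSF2, at 12119 and 11214, then 13319.8, 10644 and 12722, then 12152, 7927 and 10259, then 12865 and 9819. Their standard errors in this experiment were 0.10 for SRSF1 and 0.18 for SRSF2. A change had to exceed its standard error clearly to be called. SRSF1 in EPZ-6438, at 0.17, did not pass (limma adjusted p = 0.190).

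The mild rises with siMCRS1 depended on the scaling, while HNRNPUL1, HNRNPUL2, HNRNPD and SRSF8 kept their calls. The normalized totals of the siMCRS1 libraries, 37296662 to 40177962, were above those of the NTG libraries of that experiment, 31332572 to 33672033. Rescaling every library to the same total moved the median of all genes to -0.23 in both treatments, and to -0.08 and -0.11 for siINO80#1 and siINO80#2. Under equal totals 4 members were higher and 4 lower with siMCRS1 in DMSO, and 8 higher and 3 lower in EPZ-6438. Higher calls were thus 50.0% and 72.7% of the member calls, beside 27.1% and 30.2% of the calls over all genes. Under quantile normalization the counts were 6 higher and 5 lower in DMSO, and 5 higher and 4 lower in EPZ-6438. There higher calls were 54.5% and 55.6% of the member calls, beside 48.1% and 50.1% of the calls over all genes. The median of the 33 genes in DMSO was 0.19 by the deposited scaling, -0.04 under equal totals and -0.11 under quantile normalization, so its direction turned. In EPZ-6438 it was 0.34, 0.10 and 0.02. HNRNPK in DMSO had a log2 fold change of 0.40 by the deposited scaling, and over all alternatives run its lowest value was 0.07. Relative to the median of all genes, which equal totals moves alike, the members' median stood 0.20 higher in DMSO and 0.33 higher in EPZ-6438 by the deposited scaling, and 0.19 and 0.33 higher under equal totals, but the difference was -0.09 and 0.02 under quantile normalization.

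For siINO80#1 the split was 10 higher and 1 lower by the deposited scaling, 5 and 1 under equal totals, and 8 and 2 under quantile normalization. Higher calls were thus 90.9%, 83.3% and 80.0% of the member calls, beside 49.9%, 39.8% and 49.6% of the calls over all genes. For siINO80#2 the split was 7 and 4, 4 and 7, and 6 and 6. Its shares of higher calls were 63.6%, 36.4% and 50.0%, beside 48.3%, 38.7% and 50.5% over all genes. By contrast HNRNPUL1 stayed between 1.04 and 1.35 with siMCRS1 in DMSO over the 22 alternatives run, HNRNPUL2 between 0.54 and 0.81, HNRNPD between 0.53 and 0.87, and SRSF8 between -0.89 and -0.61, and all 4 remained called. In EPZ-6438 and with both INO80 siRNAs these 4 genes also kept their calls in every alternative run.

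**Figure D4:**
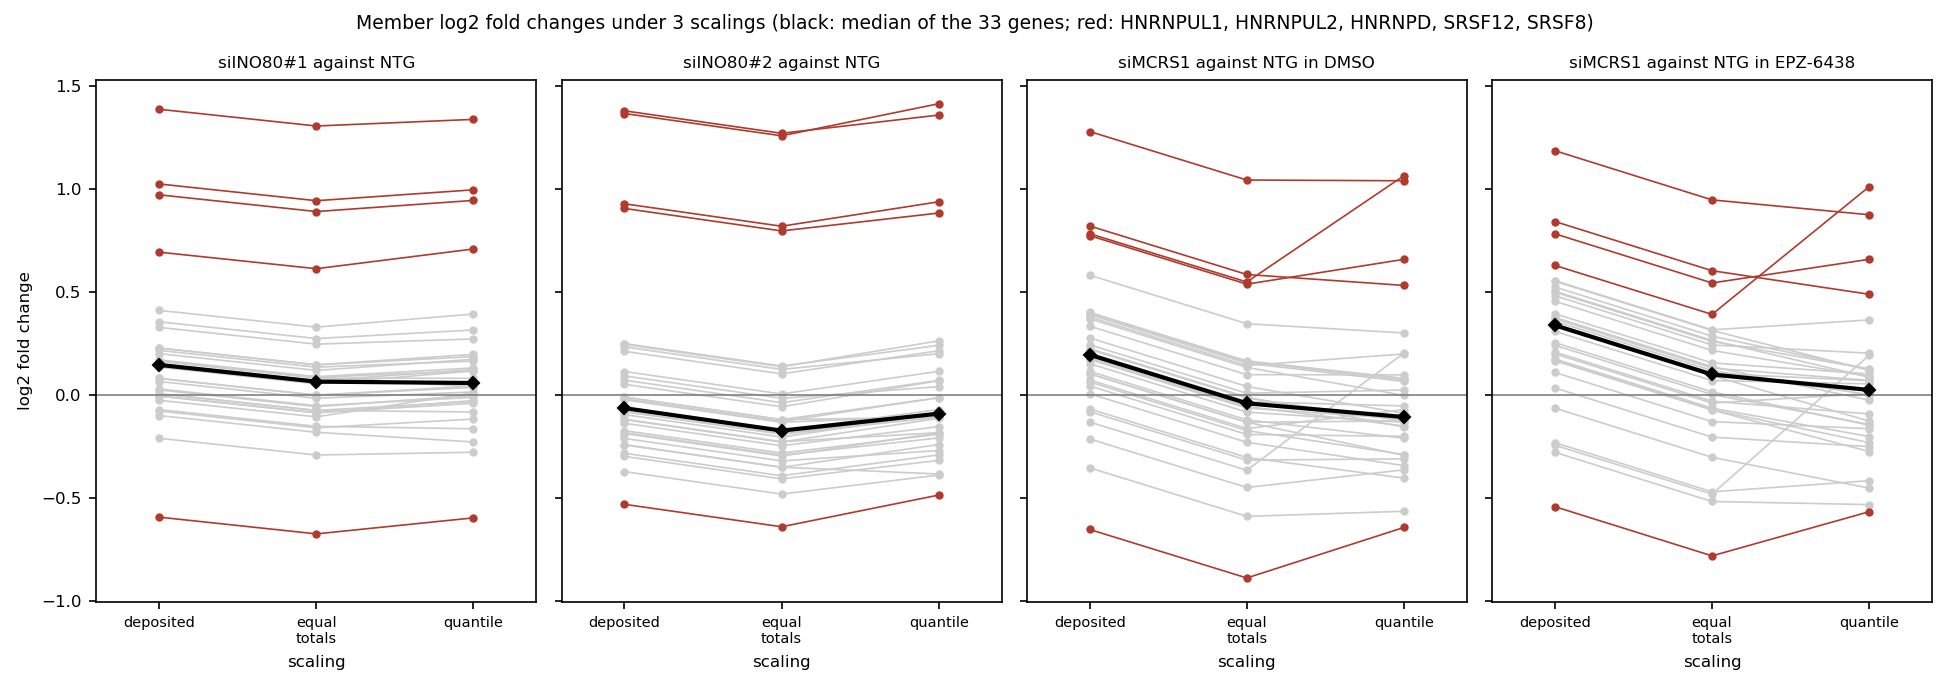
Log2 fold change of the 33 genes in each knockdown comparison under the deposited scaling, equal library totals and quantile normalization, with 1 line per gene, the median in black and HNRNPUL1, HNRNPUL2, HNRNPD, SRSF12 and SRSF8 in red. The black line crosses 0 in the panel for siMCRS1 in DMSO, from 0.19 to -0.11, while no red line crosses it.

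Summed over the 25 HNRNP genes outside pseudogenes, normalized counts were 138400 ± 9841 in NTG, 154282 ± 5731 in siINO80#1 and 141522 ± 2974 in siINO80#2 (SD, n = 3 each). In the MCRS1 experiment the sum was 300644 ± 3832 in DMSO NTG (SD, n = 2), 362527 ± 7664 in DMSO siMCRS1 (SD, n = 3), 286759 ± 10610 in EPZ-6438 NTG (SD, n = 3) and 370659 ± 7907 in EPZ-6438 siMCRS1 (SD, n = 2). As a share of the library the same genes held 0.906% to 0.928% in DMSO NTG and 0.889% to 0.968% in DMSO siMCRS1, which overlap. In EPZ-6438 they held 0.820% to 0.941% with NTG and 0.949% to 1.00% with siMCRS1. The 12 SRSF genes held 0.245% to 0.246% in DMSO NTG and 0.198% to 0.229% in DMSO siMCRS1. In EPZ-6438 they held 0.187% to 0.256% with NTG and 0.201% to 0.231% with siMCRS1, which overlap.

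EPZ-6438 against DMSO called no member in the fit without a block. Against DMSO, 0 of 38 members were called in NTG and 0 of 38 in siMCRS1, by limma and by edgeR, where 0.384% and 0.0908% of all genes were called. At an unadjusted p under 0.05 limma gave 2 members in NTG and 1 in siMCRS1, and edgeR with TMM scaling also gave 2 and 1. With numbers read as letters and the letter as a block, HNRNPLL was called lower in NTG (-0.29, limma adjusted p = 0.0303), where 12.4% of all genes were called. Among the 33 genes the log2 fold changes ran from -0.33 to 0.35 in NTG and from -0.16 to 0.20 in siMCRS1, with standard errors of 0.08 to 0.23. In NTG 28 of the 33 values were below 0, with a median of -0.11, beside a median of -0.03 over all genes. The interaction of siMCRS1 and EPZ-6438 was called for 0 members by limma and by edgeR, and for 0% of all genes, with 0 members and 336 of all genes at an unadjusted p under 0.05 by limma. Its values ran from -0.15 to 0.26, with standard errors of 0.11 to 0.32. Differences of this size between treatments in the response to siMCRS1 were thus not detectable. HNRNPUL1, HNRNPUL2 and HNRNPD had interaction values of -0.09 (SE 0.21), 0.01 (SE 0.18) and 0.02 (SE 0.14).

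**Figure D5:**
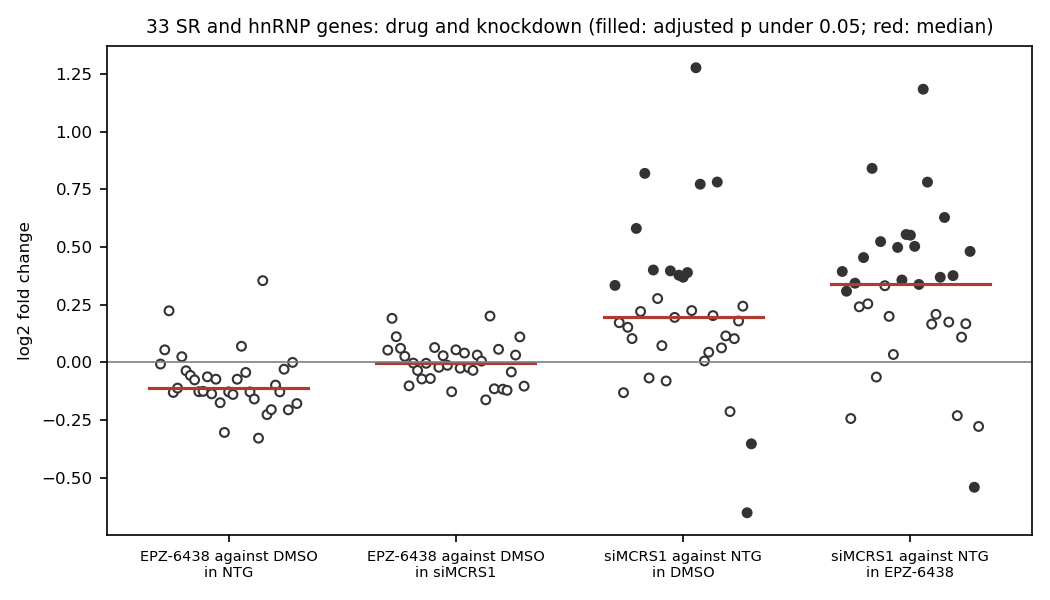
Log2 fold change of the 33 genes for EPZ-6438 against DMSO in NTG and in siMCRS1, and for siMCRS1 against NTG in each treatment, with filled points for an adjusted p under 0.05 and the median as a red line. No drug effect is filled, and the medians of the drug effects are -0.11 and -0.00 against 0.19 and 0.34 for the knockdown.

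Set side by side, the INO80 and MCRS1 knockdowns shared 7 and 5 called members. With siINO80#1 and siMCRS1 in DMSO, which share no library, 7 of 34 members were called in the same direction (HNRNPD, HNRNPF, HNRNPR, HNRNPUL1, HNRNPUL2, SRSF12 and SRSF8) and 0 in opposite directions. That is 20.6% of the members, where 27.6% of the 13534 genes tested in both experiments were called in the same direction. With siINO80#2 there were 5 (HNRNPD, HNRNPUL1, HNRNPUL2, SRSF12 and SRSF8), or 14.7% against 31.8% of all genes. The 7 are 63.6% of the 11 members called with siINO80#1 and 53.8% of the 13 called with siMCRS1 in DMSO, where the matching shares over all genes were 64.3% and 55.9%. The 5 are 45.5% of those called with siINO80#2 and 38.5% of those called with siMCRS1, where all genes gave 56.0% and 64.4%.

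Lists of genes that act on or beside SR and hnRNP proteins are set against all genes tested, of which 41.6% were called with siINO80#1, 55.0% with siINO80#2, and with siMCRS1 47.7% under DMSO and 53.7% under EPZ-6438. Of 10 SR kinases and importins tested, 6 were higher and 1 lower with siINO80#1, 6 and 1 with siINO80#2, 6 and 1 with siMCRS1 in DMSO, and 7 and 1 in EPZ-6438, which is 70.0%, 70.0%, 70.0% and 80.0% called. SRPK2, a kinase that phosphorylates SR proteins in the cytoplasm, had log2 fold changes of 0.87 (SE 0.06) with siINO80#1, 0.98 (SE 0.06) with siINO80#2 and 1.07 (SE 0.13) with siMCRS1 in DMSO. DYRK1A, a kinase that acts in nuclear speckles, rose by 0.72 with siINO80#1 and by 1.13 and 1.19 with siMCRS1 in DMSO and EPZ-6438. TNPO3, the importin that carries SR proteins into the nucleus, fell by 0.75 with siINO80#2. The list's median was 0.23, 0.31, 0.50 and 0.70 for siINO80#1 and siINO80#2 and then for siMCRS1 under each treatment, DMSO first, beside medians of all genes of 0.00 to 0.01.

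Of 16 SR-related proteins, 4, 5, 6 and 9 were higher and 1, 2, 2 and 2 lower in the same order of comparisons (31.2%, 43.8%, 50.0% and 68.8% called). RNPS1, a component of the exon junction complex, rose in all 4, by 1.02, 1.00, 1.14 and 1.25. SON, a large scaffold of nuclear speckles, had log2 fold changes of -1.45 and -1.59 with siMCRS1, and of -0.59 for siINO80#2 against siINO80#1. Of 16 other hnRNP-like proteins, 5, 3, 5 and 7 were higher and 1, 1, 0 and 0 lower (37.5%, 25.0%, 31.2% and 43.8% called, under the share of all genes each time). Among these PTBP3, a paralogue of the polypyrimidine tract binding protein, rose by 1.16, 1.46, 1.65 and 1.74, and PTBP2 by 0.44, 0.64, 1.13 and 1.39.

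Of 32 core spliceosome genes, 3 were higher and 7 lower with siINO80#1, 5 and 10 with siINO80#2, 9 and 3 with siMCRS1 in DMSO, and 13 and 4 in EPZ-6438, which is 31.2%, 46.9%, 37.5% and 53.1% called, again under the share of all genes. SF3B4, a U2 particle protein, was higher in all 4, by 0.71, 0.95, 0.91 and 0.89, and SNRNP40 fell by 1.79 with siINO80#2. Of 10 nonsense-mediated decay genes, 1, 3, 1 and 1 were higher and 0, 2, 1 and 2 lower (a share called under that of all genes each time), with list medians of 0.01 to 0.05. Of 9 tissue-specific splicing regulators tested, 2, 4, 3 and 4 were higher and 1, 2, 3 and 3 lower (33.3%, 66.7%, 66.7% and 77.8% called). In that list QKI rose by 0.98, 0.89, 1.32 and 1.42, and RBM47 fell by 0.53 with siINO80#1 and by 1.44 with siMCRS1 in DMSO. EPZ-6438 against DMSO called no gene of these lists in NTG or in siMCRS1 by limma.

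The word GCAGTAC, chosen in earlier work on these data, was searched in the longest annotated 3′ UTR of each gene. It was in 923 of 19284 genes (4.79%) and in 1 of 36 members with a UTR, HNRNPK. HNRNPUL1, HNRNPUL2, HNRNPD, SRSF12 and SRSF8 do not hold it. The 5 pseudogene members tested in the MCRS1 experiment were HNRNPCP1, HNRNPCP2, HNRNPKP2, HNRNPKP4 and HNRNPLP2. All 29 pseudogene members together held 112 to 155 normalized counts in each library of that experiment and 29.2 to 39.7 in the INO80 experiment. Reads of these copies and of their parent genes can be assigned to either, so the pseudogene values are uncertain.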

How the data were processed

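Messenger RNA libraries of HepG2 cells were measured in 2 experiments (19 libraries). The submitters' processing notes name kallisto, DESeq2 and the build GRCh38, with no versions or roles. The annotation, and whether counting used the strand, are not given in the sources used here, and the text of the paper covers other assays of this study. The authors deposited a never-negative signal per gene symbol, normalized counts that are whole multiples of 1 step in each library (100% of values within 0.01 of a whole multiple). These whole counts are called reads here and may be rounded estimates. A level of 3 reads equals 2.13 to 4.30 normalized counts and covers counting error only.

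Values were tested as log2(value + 1) with limma 3.58.1 in R 4.3.3 (lmFit, eBayes with a trend), with all groups of an experiment in 1 fit, a mean of at least 10 and a Benjamini-Hochberg adjusted p under 0.05. On this scale low genes show too small a fold change. Experiments were scaled separately and were not compared by level. Groups came from the labels, and columns of the MCRS1 experiment were assigned by group. The members and lists were chosen with earlier results of these data known. Values in every library are given for the 4 members with the largest called change per comparison and a mean of at least 50, and for 9 core genes (SRSF1, SRSF2, SRSF3, SRSF7, HNRNPA1, HNRNPA2B1, HNRNPC, HNRNPK, HNRNPU). Of other lists at most the 2 largest called changes per comparison are named. Alternatives were other pseudocounts, filters and scalings, edgeR 4.0.16 on the recovered reads, eBayes without a trend, only the groups compared, each library left out and the library letter as a replicate block. Deviations from the group means correlated by 0.135 to 0.263 in the 3 same-letter pairs of NTG and siINO80#1, so the letters were taken to pair these groups, and by -0.0766 to 0.134 in the other same-letter pairs of that experiment. The scripts were tested on simulated data. Transcript lengths and 3′ UTRs came from GENCODE v44 on GRCh37, promoters and gene spans from RefSeq on GRCh38.p14, all matched by symbol. All 33 tested genes outside pseudogenes had a length and 34 members a promoter window. Python 3.11.15, numpy 2.4.6, pandas 2.3.3 and matplotlib 3.10.9 were used. A leukocyte marker of the lists is not reported here.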

Additional observations from a re-analysis of the deposited data

Results flagged for a closer look

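The effects of the INO80 siRNAs on 7 members differed by the direct test of siINO80#2 against siINO80#1. That is 20.6% of the members, near the 22.1% of all genes called in this comparison. As the effect of siINO80#2 minus that of siINO80#1 on the log2 scale, the values were -0.26 for HNRNPH3, -0.36 for HNRNPR, 0.67 for SRSF12, -0.38 for SRSF2, -0.45 for SRSF3, -0.28 for SRSF4 and -0.41 for SRSF7. Their limma adjusted p-values ran from 0.00608 for SRSF12 to 0.0396 for SRSF4. Only HNRNPR and SRSF12 kept the call in all 21 alternatives run, and each of the others lost it without certain single libraries. No interaction of siMCRS1 and EPZ-6438 was called among the members.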

How the results depend on the processing

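Under equal totals the number of called members went from 11 to 6 for siINO80#1, from 7 to 4 for siINO80#2 against siINO80#1, from 13 to 8 with siMCRS1 under DMSO and from 19 to 11 with siMCRS1 under EPZ-6438, and the members called the same way with siINO80#1 and siMCRS1 in DMSO from 7 to 4. Quantile normalization gave 9 for siMCRS1 in EPZ-6438. For siINO80#2 against siINO80#1, eBayes without a trend gave 2 and only the groups compared gave 4. Leaving out each library gave 7 to 12 for siINO80#1, 7 to 11 for siINO80#2, 2 to 7 for siINO80#2 against siINO80#1, 9 to 13 with siMCRS1 under DMSO and 11 to 18 under EPZ-6438, with 6 to 8 and 4 to 7 called the same way. The libraries that moved a count by over 1.5 times were NTG B (7 for each INO80 siRNA), siINO80#1 B (7 for siINO80#1, 2 for the siRNAs against each other), siINO80#1 A (2 for the siRNAs against each other), siINO80#2 A (7 for siINO80#2), and EPZ-6438 siMCRS1 A (12) and B (11), which leave 1 library in that group, taken to vary like the others. The cause was not tested. Counts for EPZ-6438 and the interaction were 0 in all alternatives run but 1, the block below. A set of 24 named fold changes, drawn mainly from the 4 largest called ones per comparison, was followed over the alternatives. Of its 514 alternative values 486 kept direction and call, 28 kept the direction only and 0 reversed. Other fold changes did change sign. With siMCRS1 in DMSO, quantile normalization moved HNRNPM from 0.37 to -0.00 and HNRNPU from 0.22 to -0.16.

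In the INO80 experiment libraries of the same letter correlated by 0.103 on average (9 pairs, -0.0766 to 0.263) and others by -0.0515 (18 pairs). Deviations from a group mean sum to 0, so the second average largely follows from the first and is no separate evidence of pairing. With the replicate block the counts were 13 for siINO80#1, 14 for siINO80#2 and 11 for the siRNAs against each other (1 higher and 10 lower). These were 38.2%, 41.2% and 32.4% of the members, beside 45.1%, 57.9% and 25.6% of all genes in the same fit. For siINO80#1 and siINO80#2, 8 and 5 members were called the same way as with siMCRS1 in DMSO. In the MCRS1 experiment the labels do not tie the numbers to letters, and the pairing with numbers read as letters was chosen after seeing the data. Same-letter libraries then correlated by 0.200 on average (12 pairs, -0.0169 to 0.303, 11 over 0.1) and others by -0.0959 (25 pairs). Here too the second average is no separate evidence. Each comparison of siMCRS1 with NTG has 2 such pairs, too few to take the letters as pairs. The block gave 22 for siMCRS1 in DMSO, 29 in EPZ-6438, 1 for EPZ-6438 in NTG and 0 in siMCRS1 and for the interaction, with 8 and 7 called the same way.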
